A study of Mus musculus with 2 samples.

Results

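The genes of glutathione and thioredoxin chemistry were compared between mouse skin stretched for 5 days and non-stretched skin. They were chosen by name. The symbols of the glutathione S-transferase (GST), glutathione peroxidase, peroxiredoxin and thioredoxin reductase families were taken, together with 13 single genes for glutathione synthesis, superoxide dismutases, catalase, thioredoxin and the transcription factor NRF2 with some of its classical targets. Of the 24421 gene symbols in the table of counts, 53 matched. The 46 of them with over 3 counts in the control library, the stretched library or both are described here. The 7 left out were Gpx5, Gpx6, Gstt4 and Prdx6b, with 0 counts in both libraries, the pseudogene Gpx2-ps1 and Gstm3, with at most 1 count in a library, and Gsta1, with 1 and 3 counts. The member nearest to that limit was Gsto2, with 8 counts in the control and 4 in the stretched library.

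RNA was extracted from whole-layer skin of wild-type C57BL6/J mice, and 1 library was made for each condition. In the stretched group a device glued to the back put the skin under a strain labelled 33% for 5 days, and the control group was not stretched. The methods raise the strain by a fixed step each day from its initial value and discard the skin under the device. The methods describe young adult females whose hair was in telogen, the resting phase, and state neither the number of animals behind each library nor the position of each piece on the back. The kit does not mark strand, and the counts summed to 14152379 for control skin and 11648655 for stretched skin.

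Superoxide dismutases turn superoxide into hydrogen peroxide, which catalase breaks down directly and peroxidases reduce with electrons that come from NADPH. In the glutathione branch, the tripeptide glutathione is made by glutamate-cysteine ligase and glutathione synthetase, is used by peroxidases and transferases, and is returned to its reduced form by glutathione reductase. In the thioredoxin branch, thioredoxin reductase reduces thioredoxin, which in turn serves the peroxiredoxins. NRF2, held back by KEAP1 until oxidants or electrophiles arrive, is known to raise many of these genes through the antioxidant response element, and skin, an organ exposed to light and air, uses both branches.

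Levels are in counts per 1000000 counts of the library (CPM). The log2 ratio is that of CPM in stretched skin over CPM in control skin, with its exact 95% counting interval (Clopper-Pearson) given after it. These intervals cover counting error only, since reads are not independent molecules, and they compare the 2 libraries and not the conditions. Replicates are lacking, so differences could not be set against a spread between samples and no p-value is given. In bulk tissue, fewer cells of a type and less RNA per cell cannot be told apart. The median log2 ratio of all 16255 genes above 3 counts was -0.12, and the other ways of scaling tried would raise every log2 ratio by 0.06 to 0.11. A log2 ratio between -0.12 and 0 is therefore at or above that of the middle gene.

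The sequence around the active residue is shown for the peroxidases and reductases, because it separates members whose active site holds selenocysteine from those with cysteine. Selenocysteine is read from an in-frame TGA, a codon that otherwise ends translation. Each line gives the coding strand of mm10 (GENCODE M21 transcripts) from 15 bases before the codon, which is in capitals. The lines of the peroxidases run to 15 bases after it.
Gpx1: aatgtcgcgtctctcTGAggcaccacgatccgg
Gpx2: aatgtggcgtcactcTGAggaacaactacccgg
Gpx3: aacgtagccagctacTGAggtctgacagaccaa
Gpx4: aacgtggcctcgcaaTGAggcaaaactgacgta
Gpx7: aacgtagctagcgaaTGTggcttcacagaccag
Gpx8: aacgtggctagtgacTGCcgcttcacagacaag
Txnrd1: ctccagtctggctgcTGAggttaa
Txnrd2: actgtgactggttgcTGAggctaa
Txnrd3: actcagaaaggctgcTGAggctag
Gpx1, Gpx2, Gpx3, Gpx4 and the 3 reductases carried TGA, and Gpx7 and Gpx8 carried a cysteine codon. In the reductases the TGA was followed by 1 further codon and the stop codon. The TGA of Gpx3 lies at chr11:54907256-54907258 on the plus strand and that of Txnrd1 at chr10:82896037-82896039 on the plus strand.

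The redox genes went both ways in stretched skin. Among the 46, the highest ratios were those of Gsta4, Gpx3 and Sod3, and the lowest those of Gpx2, Gclc and Gstm7. The median log2 ratio of the 46 genes was 0.04, against -0.12 for all genes, and 28 lay above the median of all genes and 18 below it. By the rule of the methods a gene is kept where the product (EV) of its FPKM values, here with 1 added, exceeds 10, and is called where it differs by 2-fold or more. FPKM is CPM divided by the exonic length in kilobases. The EV filter left 39 of the genes. Of these, 3 (7.69%) were called higher, Gpx3, Sod3 and Gsta4, against 2.61% of all genes that passed the filter. None was called lower, against 2.43% of all genes, and Gclc fell just short with a log2 ratio of -0.99 on FPKM with 1 added. Without a pseudocount Gclc was called, and the number lower was 1. On CPM without a pseudocount, 3 of 46 genes (6.52%) were at least 2-fold higher, against 6.32% of all genes, and 2 (4.35%), Gpx2 and Gclc, at least 2-fold lower, against 5.47%. Gclc passed 2-fold with total counts only, and its log2 ratio was -0.996 to -0.949 under the 4 other scalings.

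Most differences were small. The log2 ratio lay within 0.5 of 0 for 31 of the 46 genes (67.4%). The share over all genes was not computed, so this does not set the redox genes apart. The counting interval was wholly above 0 for 15 genes (32.6%), against 18.1% of all genes, wholly below 0 for 14 (30.4%), against 33.5%, and included 0 for 17. This split depends on the scaling. With TMM factors 19 genes were above 0, against 24.1% of all genes, and 8 below, also against 24.1%. The share of redox genes above 0 was larger than that of all genes under both scalings, and the share of 2-fold differences on CPM was near it. An interval leaves out 0 more readily at higher counts, and 41 of the 46 genes had at least 100 counts over both libraries. All genes were not matched for depth, here or in the shares given below, so these shares are not like for like.

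**Figure D1:**
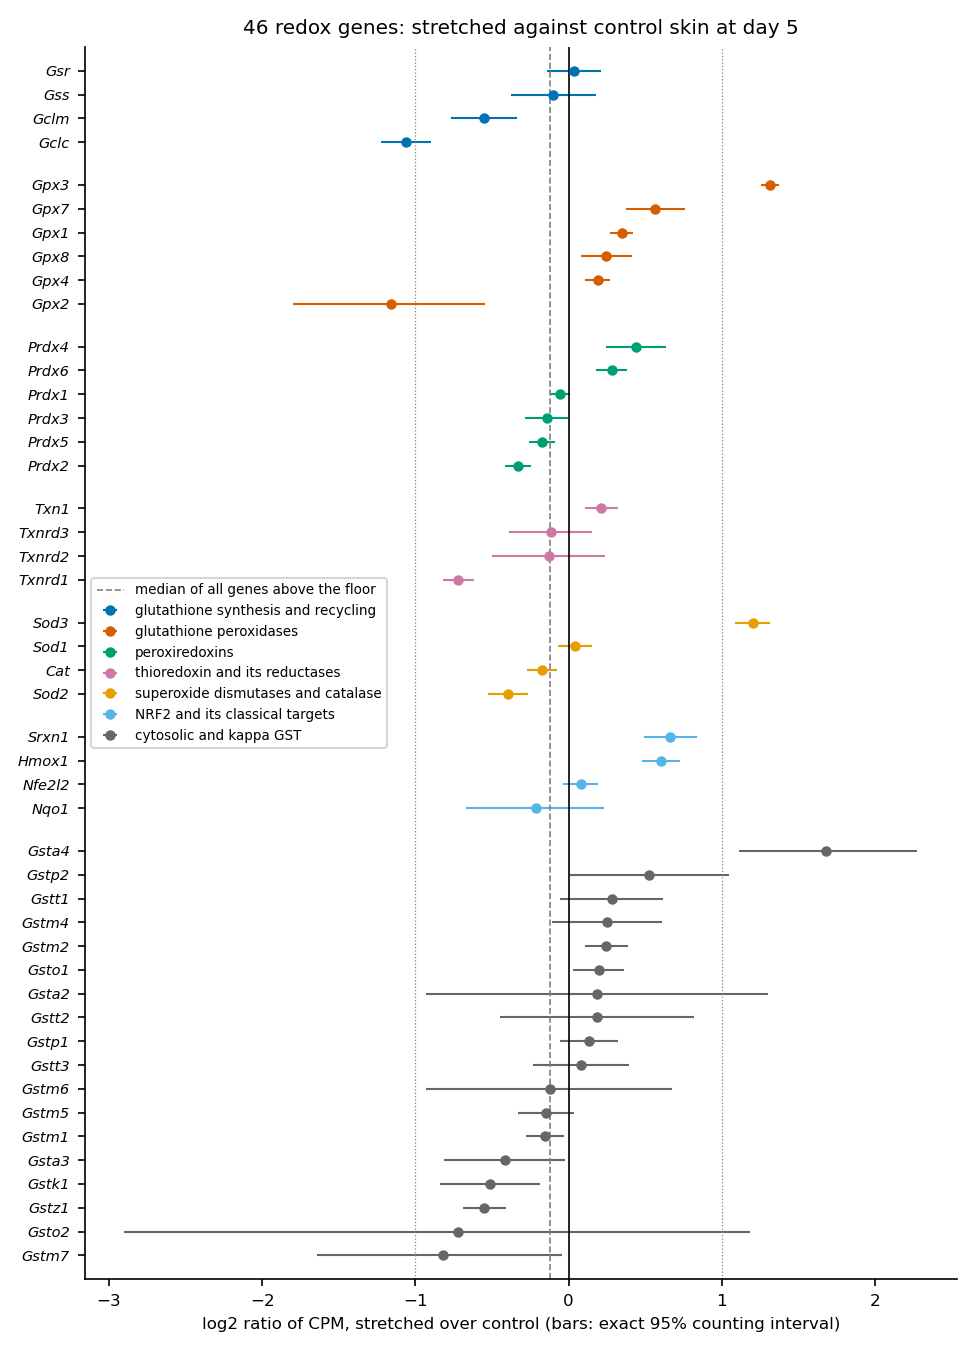
Log2 ratio of CPM, stretched over control skin, for the 46 redox genes grouped by role, with 1 library per condition. Bars are exact 95% counting intervals, dotted lines mark 2-fold and the dashed line the median of all genes (-0.12). Gsta4, Gpx3 and Sod3 lie beyond the upper dotted line and Gclc and Gpx2 beyond the lower one.

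**Figure D2:**
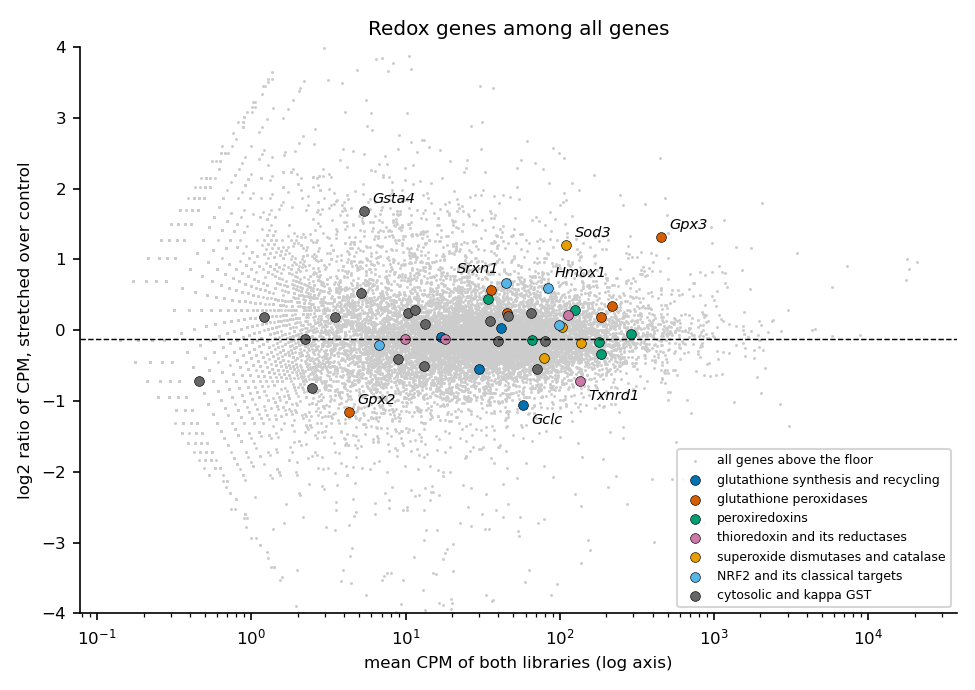
Log2 ratio of CPM against the mean CPM of both libraries (log axis) for all genes above 3 counts (grey) and the redox genes (coloured by role). The axis stops at 4 on either side, which leaves out 67 genes, none of them a redox gene. The highest redox gene is Gsta4 (1.68) and the lowest Gpx2 (-1.16).

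The RNA levels of both genes for the first step of glutathione synthesis were lower in stretched skin. Protein and enzyme activity were not measured. Gclc, the catalytic subunit of glutamate-cysteine ligase, had 1102 counts in the control library and 435 in the stretched one, or 77.9 and 37.3 CPM. That is 2.09-fold lower, a log2 ratio of -1.06 (-1.22 to -0.90), and 4.98% of all genes had a lower ratio. In mm10 the gene spans 77754535 to 77794485 on chromosome 9, and it shares none of its 76-base stretches, the read length, with another gene. Gclm, the modifier subunit of the same enzyme on chromosome 3 from 122245557 to 122270732, had 507 counts and 285, or 35.8 and 24.5 CPM, a log2 ratio of -0.55 (-0.76 to -0.34). RNA of both subunits was thus lower, that of the catalytic one by more. Gss, which adds glycine in the second step, had 250 and 192 counts (-0.10, -0.38 to 0.18), with a sign that turned positive under 3 of 4 other scalings. Gsr, the reductase that regenerates glutathione, had 579 and 489 counts (0.04, -0.14 to 0.21). For Gss and Gsr a difference was not detectable at this depth, and 15.4% of the exonic bases of Gss overlap genes on the opposite strand.

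The glutathione peroxidases were higher in stretched skin with 1 exception. Of 6 measured, 5 had an interval above 0 (83.3%, against 18.1% of all genes) and 1 below (16.7%, against 33.5%). Their summed level was 699 CPM in the control library and 1177 in the stretched one, and without Gpx3 it was 441 and 535 CPM, a 1.21-fold difference. Gpx3, the secreted peroxidase of plasma and tissue fluid, had 3655 counts in the control library and 7480 in the stretched one, or 258 and 642 CPM. It was 2.49-fold higher, a log2 ratio of 1.31 (1.26 to 1.37), and lies on chromosome 11 from 54902453 to 54910377. This one gene had the highest level per kilobase of all 46 in either library, with 142 FPKM in control skin and 354 in stretched skin. Gpx7, a cysteine peroxidase of the endoplasmic reticulum, had 410 and 500 counts (29.0 and 42.9 CPM, log2 ratio 0.57, 0.38 to 0.76). Gpx8, its relative in the same compartment, had 593 and 579 counts (41.9 and 49.7 CPM, log2 ratio 0.25, 0.08 to 0.41). Both members without selenocysteine were therefore on the higher side. Gpx1, the ubiquitous cytosolic enzyme, had 2707 and 2832 counts (191 and 243 CPM, log2 ratio 0.35, 0.27 to 0.42). Gpx4, which reduces lipid peroxides in membranes and guards against ferroptosis, had 2441 and 2290 counts (172 and 197 CPM, log2 ratio 0.19, 0.11 to 0.27), but shares 29.6% of its 76-base stretches with pseudogene copies and is uncertain. Gpx2, an epithelial member best known in the gut, was the exception. It had 84 counts and 31, or 5.94 and 2.66 CPM, a log2 ratio of -1.16 (-1.80 to -0.55), and was too low to pass the EV filter.

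The peroxiredoxins differed little, and their median of -0.10 turned positive under 3 of 4 other scalings. Prdx4, the secretory-pathway member, had 410 and 457 counts (29.0 and 39.2 CPM), a log2 ratio of 0.44 (0.24 to 0.63). Prdx6, the single-cysteine member that also acts on phospholipids, had 1610 counts in both libraries, which is 114 and 138 CPM, a log2 ratio of 0.28 (0.18 to 0.38). These were the members above 0. Prdx2, a cytosolic member abundant in red cells, had 2932 and 1919 counts (207 and 165 CPM), a log2 ratio of -0.33 (-0.41 to -0.25). Prdx5 had 2680 and 1959 counts (-0.17, -0.26 to -0.09), and 19.1% of its exonic bases lie under Trmt112 on the opposite strand. Prdx3, the mitochondrial member, had 974 and 726 counts (-0.14), with an upper bound that fell just below 0. The intervals of Prdx3 and Prdx5 included 0 with TMM. Prdx1, the peroxiredoxin with the most counts, had 4203 and 3323 (-0.06, -0.12 to 0.01), and its sign changed under all 4 other scalings.

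The genes of thioredoxin and its cytosolic reductase went opposite ways. Txn1, the cytosolic thioredoxin, had 1483 and 1416 counts, or 105 and 122 CPM, a log2 ratio of 0.21 (0.11 to 0.32). Txnrd1, the reductase that serves it, had 2382 counts in the control library and 1190 in the stretched one, or 168 and 102 CPM, a log2 ratio of -0.72 (-0.82 to -0.62). It lies on chromosome 10 from 82833951 to 82897712 and shares no stretch with another gene. RNA of the carrier was thus slightly higher and that of the enzyme that reduces it lower. Txnrd2, the mitochondrial reductase, had 146 and 110 counts (-0.13, -0.50 to 0.24). Txnrd3, a form known from testis, had 265 and 201 counts (-0.12, -0.39 to 0.15). Neither differed detectably at this depth.

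The superoxide dismutases did not move together. Sod3, the extracellular enzyme bound to matrix, had 942 counts in the control library and 1784 in the stretched one, or 66.6 and 153 CPM. It was 2.30-fold higher, a log2 ratio of 1.20 (1.09 to 1.32), and lies on chromosome 5 from 52363791 to 52371418. Sod1, the cytosolic enzyme, had 1445 and 1223 counts (102 and 105 CPM, log2 ratio 0.04, -0.07 to 0.15). Sod2, the mitochondrial enzyme, had 1269 and 795 counts (89.7 and 68.2 CPM, log2 ratio -0.39, -0.52 to -0.26), and it shares 16.0% of its stretches with other genes. Cat, which breaks down hydrogen peroxide in peroxisomes, had 2071 and 1510 counts (146 and 130 CPM, log2 ratio -0.17, -0.27 to -0.08). Sod3 was higher and Sod2 lower under all 5 scalings. Under 3 of 4 other scalings the interval of Cat included 0 and that of Sod1 lay above 0, so neither is settled. Sod3 and Gpx3, both secreted, were the 2 genes other than Gsta4 called higher.

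Fibroblast markers were higher in the same library, in 8 of 8 genes, with a summed level of 41469 CPM in the control library and 77770 in the stretched one and none at 0. The collagen gene Col1a1 had 11879 and 23813 CPM and the receptor gene Pdgfra 126 and 142 CPM, both picked after their values were seen. The 3 collagen genes carried the sum, with 38945 and 74927 CPM, and the other 5 summed to 2523 and 2842 CPM, a 1.13-fold difference. The part of the fibroblast genes in the levels of Sod3 and Gpx3 was not tested.

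**Figure D3:**
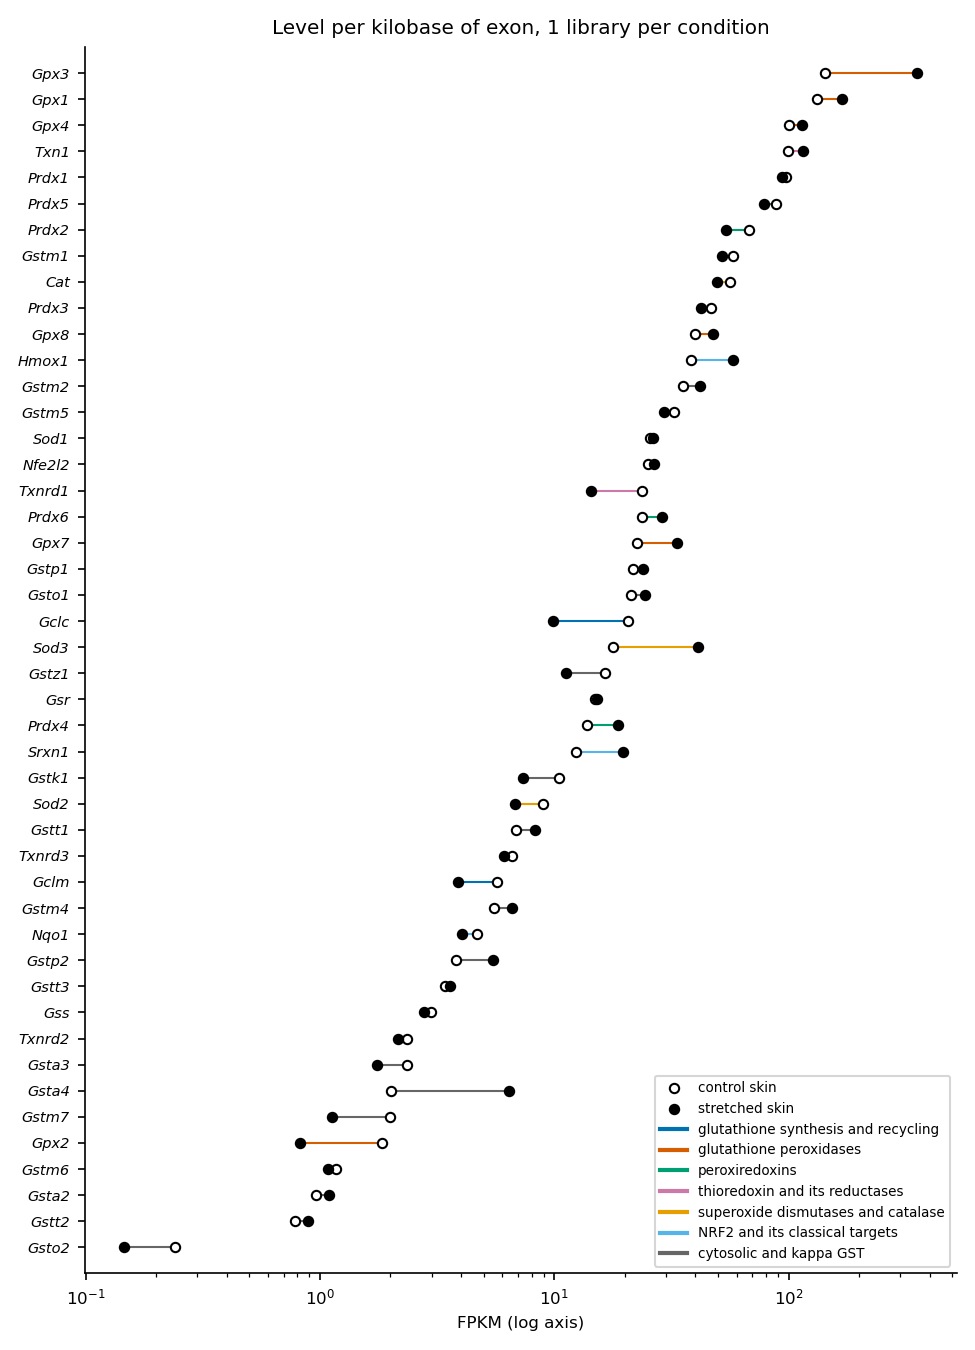
FPKM (log axis) of each redox gene in control skin (open points) and stretched skin (filled points), ordered by the level in control skin, with 1 library per condition. Gpx3, Gpx1, Gpx4, Txn1 and Prdx1 had the highest levels in both libraries, and Sod3 moved up and Txnrd1 and Gclc down in the order.

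Per kilobase of exon, the order of the most abundant members was nearly the same in both libraries. In control skin it began with Gpx3 (142 FPKM), Gpx1 (133), Gpx4 (100.05), Txn1 (99.7) and Prdx1 (97.6). In stretched skin Gpx3 (354) and Gpx1 (169) again came first, followed by Txn1 (116), Gpx4 (114) and Prdx1 (93.7). The places of Gpx4 and Txn1 are not fixed, since their levels differed little and the length of each gene is taken from the annotation. Sod3 moved from 17.8 to 41.0 FPKM, Txnrd1 from 23.8 to 14.4 and Gclc from 20.7 to 9.92.

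NRF2 and its classical targets did not move as 1 group. Nfe2l2, which encodes NRF2, had 1356 and 1179 counts, or 95.8 and 101 CPM, a log2 ratio of 0.08 (-0.03 to 0.19). Keap1, its repressor, had 1173 and 910 counts (-0.09, -0.21 to 0.04). The interval of Nfe2l2 lay above 0 under all 4 other scalings, so its place is not settled, and the amount of the NRF2 protein, which is set by degradation, was not measured. Srxn1, the sulfiredoxin that repairs overoxidised peroxiredoxins, had 494 and 644 counts, or 34.9 and 55.3 CPM, a log2 ratio of 0.66 (0.49 to 0.84), on chromosome 2 from 152105516 to 152111376. Hmox1, the inducible heme oxygenase, had 948 and 1184 counts, or 67.0 and 102 CPM, a log2 ratio of 0.60 (0.48 to 0.73), on chromosome 8 from 75093621 to 75100589. Both were higher by about as much. Nqo1, a quinone reductase often read as a gauge of NRF2, had 103 and 73 counts, or 7.28 and 6.27 CPM, a log2 ratio of -0.22 (-0.67 to 0.23). Gclc, Gclm and Txnrd1, 3 further classical targets, were lower, as given above.

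Hmox1 is also an abundant gene of macrophages that clear red cells. The macrophage markers were higher in stretched skin, with 11 of 12 intervals above 0, a median log2 ratio of 1.28 and summed levels of 966 and 2280 CPM, none of them at 0. Their part in the level of Hmox1 was not tested. Of the red cell markers, the globin genes Hba-a1, Hba-a2, Hbb-bs and Hbb-bt were listed at 0 in both libraries, so that list rests on 2 other genes, with 1 interval below 0 and 1 that included 0.

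Parts of 4 promoters are shown because they hold motifs of NRF2 or AP-1 and belong to genes that were higher (Srxn1), lower (Gclm, Txnrd1) or neither (Prdx1). They run from 150 to 31 bases before the RefSeq start of transcription (GRCm38.p6), on the strand of the gene. Capitals mark, for Txnrd1, Gclm and Prdx1, the core letters of the antioxidant response element, TGACNNNGC on either strand, and for Srxn1 the letters TGANTCA, the AP-1 site, which the first motif can overlap.
Txnrd1 (chr10:82859056-82859175, plus strand): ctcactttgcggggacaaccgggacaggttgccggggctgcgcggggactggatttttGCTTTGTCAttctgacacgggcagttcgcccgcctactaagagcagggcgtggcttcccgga
Gclm (chr3:122245407-122245526, plus strand): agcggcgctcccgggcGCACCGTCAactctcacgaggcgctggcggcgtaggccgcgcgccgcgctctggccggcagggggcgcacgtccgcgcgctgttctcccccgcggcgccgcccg
Prdx1 (chr4:116685449-116685568, plus strand): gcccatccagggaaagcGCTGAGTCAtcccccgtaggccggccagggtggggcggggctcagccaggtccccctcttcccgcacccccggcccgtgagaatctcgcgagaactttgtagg
Srxn1 (chr2:152105374-152105493, plus strand): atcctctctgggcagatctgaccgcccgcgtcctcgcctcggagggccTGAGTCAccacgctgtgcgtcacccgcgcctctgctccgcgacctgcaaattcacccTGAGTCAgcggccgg
Of the 46 redox genes, 39 had a promoter in the table, each as 300 bases that run past the start of transcription. The core TGACNNNGC was in the promoter of 9 of them (23.1%), against 14.0% of all genes in the table. These were Gclm, Gsta3, Gstm5, Gstm7, Nfe2l2, Prdx1, Sod1, Srxn1 and Txnrd1. The match of Srxn1 lies after the start of transcription and outside the part shown, and the others lie before the start. TGANTCA was in 5 (12.8%), Gstm5, Gstp1, Gstp2, Prdx1 and Srxn1, against 8.97% of all genes. Among the genes with the first motif, Srxn1 was higher and Gclm and Txnrd1 lower under all 5 scalings. Gsta3 and Gstm7 were lower and the intervals of Gstm5, Nfe2l2, Prdx1 and Sod1 included 0 with total counts. With TMM the split moved from 1 higher and 4 lower to 3 and 2, since Gsta3 and Gstm7 then included 0 and Nfe2l2 and Sod1 lay above it. A match of letters is not a bound site.

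The GST genes, which join glutathione to electrophiles, went both ways within and between classes. Over 18 measured genes the median log2 ratio was 0.11, with 4 intervals above 0 (22.2%, against 18.1% of all genes), 5 below (27.8%, against 33.5%) and 9 that included 0. With TMM 6 were above and 2 below, Gstz1 and Gstk1. Gsta3, Gstm1 and Gstm7 then included 0, and Gstp1 and Gstt1 lay above it. Gsta4, an alpha-class enzyme that clears the lipid peroxidation product 4-hydroxynonenal, had 36 counts in the control library and 95 in the stretched one, or 2.54 and 8.16 CPM. It was 3.21-fold higher, a log2 ratio of 1.68 (1.11 to 2.28), higher than 97.8% of all genes, and lies on chromosome 9 from 78182774 to 78209349. Its class did not move with it. Gsta3 had 144 and 89 counts (-0.41, -0.81 to -0.02), and Gsta2 had 16 and 15 (0.19, -0.93 to 1.30) and shares 36.2% of its stretches with neighbouring copies.

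The mu class holds the GST genes with the highest levels per kilobase of exon in control skin, Gstm1 (57.8 FPKM), Gstm2 (35.4) and Gstm5 (32.6). Its summed level hardly differed, with 201 and 199.9 CPM. Gstm1 had 1204 and 891 counts (-0.15, -0.28 to -0.03) and Gstm2 had 842 and 822 (0.25, 0.11 to 0.39). Gstm7, with 45 and 21 counts, had the lowest ratio of the class (-0.82, -1.64 to -0.04). Gstm4 (0.25), Gstm5 (-0.15) and Gstm6 (-0.12) had intervals that included 0. The 6 measured genes of the mu class lie in 1 cluster on chromosome 3, with Gstm3 among them, and did not share a direction. Gstm1 shares 11.4% of its stretches with relatives.

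In the zeta and kappa classes, with 1 gene each, the gene was lower. Gstz1, the zeta-class enzyme of tyrosine breakdown, had 1188 and 668 counts, or 83.9 and 57.3 CPM, a log2 ratio of -0.55 (-0.69 to -0.41). Gstk1, the mitochondrial and peroxisomal kappa-class enzyme, had 218 and 126 counts, a log2 ratio of -0.51 (-0.84 to -0.19). Of the exonic bases of Gstz1, 12.2% lie under Pomt2 and Gm6566 on the opposite strand. Gsto1, which reduces dehydroascorbate, had 610 and 576 counts (0.20, 0.03 to 0.36). Gsto2 had too few counts to say (-0.72, -2.90 to 1.18). The 3 theta-class genes Gstt1 (0.28), Gstt2 (0.18) and Gstt3 (0.08) all had intervals that included 0. Gstp1, the pi-class enzyme, had 476 and 430 counts (0.13, -0.06 to 0.33) and Gstp2 had 60 and 71 (0.52, 0.01 to 1.04). They share 29.0% and 50% of their stretches with each other and with a pseudogene, so reads could be split between them.

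The genes that supply and break down glutathione were mostly lower. Of 20 in the list, 13 had an interval below 0 (33.5% of all genes did), 4 above and 3 that included 0, with a median log2 ratio of -0.29 against -0.12 for all genes. At least 2-fold lower were Chac1 (345 and 58 counts, log2 ratio -2.29), which degrades glutathione in the cytosol, and Ggt1 (321 and 70, -1.92), which degrades it at the cell surface. Cth (157 and 47, -1.46) and Cbs (910 and 290, -1.37), the enzymes of the transsulfuration route to cysteine, were lower too, as was the aminopeptidase Lap3 (3245 and 1250, -1.10). Dpep2, a dipeptidase, was the one gene at least 2-fold higher (93 and 197, 1.36). In the same libraries hair matrix and shaft markers were lower in 12 of 12 genes, adipocyte markers in 10 of 10 and melanocyte markers in 6 of 6, and their part in this list was not tested. Not all breakdown genes were lower. Ggt5 (270 and 333 counts, 0.58), Dpep1 (1525 and 1734, 0.47) and Anpep (1890 and 1878, 0.27) were higher with Dpep2, and the intervals of Ggct, Ggt7 and Chac2 included 0.

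Among other NRF2 targets, 7 of 18 measured genes had an interval above 0 (38.9%, against 18.1% of all genes) and 7 one below (38.9%, against 33.5%), and the median was -0.04. Akr1b8, an aldo-keto reductase, had 120 and 347 counts (1.81, 1.51 to 2.12). Slc7a11, which imports cystine, was the one gene at least 2-fold lower, with 94 and 35 counts (-1.14, -1.75 to -0.57). The others with an interval above 0 were the ferritin genes Fth1 (7984 and 10437 counts, 0.67) and Ftl1 (8100 and 10533, 0.66), and Cbr3 (0.36), Ugdh (0.34), Blvrb (0.24) and Slc48a1 (0.13). The others below 0 were Me1 (3842 and 1820 counts, -0.80), Tkt (5759 and 3036, -0.64), G6pdx (1796 and 996, -0.57), Taldo1 (-0.30), Pgd (-0.28) and Abcc1 (-0.17). These were named after their values were seen.

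In the next 5 lists the counts can be read against the 18.1% of all genes above 0 and the 33.5% below. Among the 9 genes of NRF2 control the median was 0.05, with 3 intervals above 0 (33.3%) and 1 below (11.1%), and none was past 2-fold. The 19 glutaredoxin and other thioredoxin-fold genes had a median of -0.00, with 4 above (21.1%) and 3 below (15.8%). Of the 10 microsomal and other GST genes 4 were above and 4 below (40% each), with a median of 0.09. Gdap1, among those below, was the one past 2-fold, with 18 and 2 counts (interval -6.04 to -0.83). It was measured only through the control library, so it could only be lower. Methionine sulfoxide reductases and sestrins had 2 of 7 intervals below 0 (28.6%) and 0 above (median 0.01), and the selenoprotein synthesis genes 2 of 8 below (25%) and 0 above (median -0.19).

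Of the enzymes that produce oxidants, 10 of 16 had an interval above 0 (62.5%, against 18.1% of all genes), 3 below (18.8%, against 33.5%) and 3 that included 0, with a median log2 ratio of 0.62. Genes of the phagocyte NADPH oxidase, its regulator Rac2 included, were among those at least 2-fold higher. They included Ncf4 (59 and 156 counts, 1.68), Cybb (179 and 450, 1.61), Rac2 (175 and 407, 1.50), Cyba (236 and 464, 1.26) and Ncf1 (211 and 406, 1.23). These are genes of macrophages and neutrophils, whose markers were higher as well, and the part of those cells was not tested. Lower by at least 2-fold were Nos1 (390 and 64, -2.33), a nitric oxide synthase of nerve and muscle, and Duox2 (18 and 5, -1.57, -3.35 to -0.08).

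**Figure D4:**
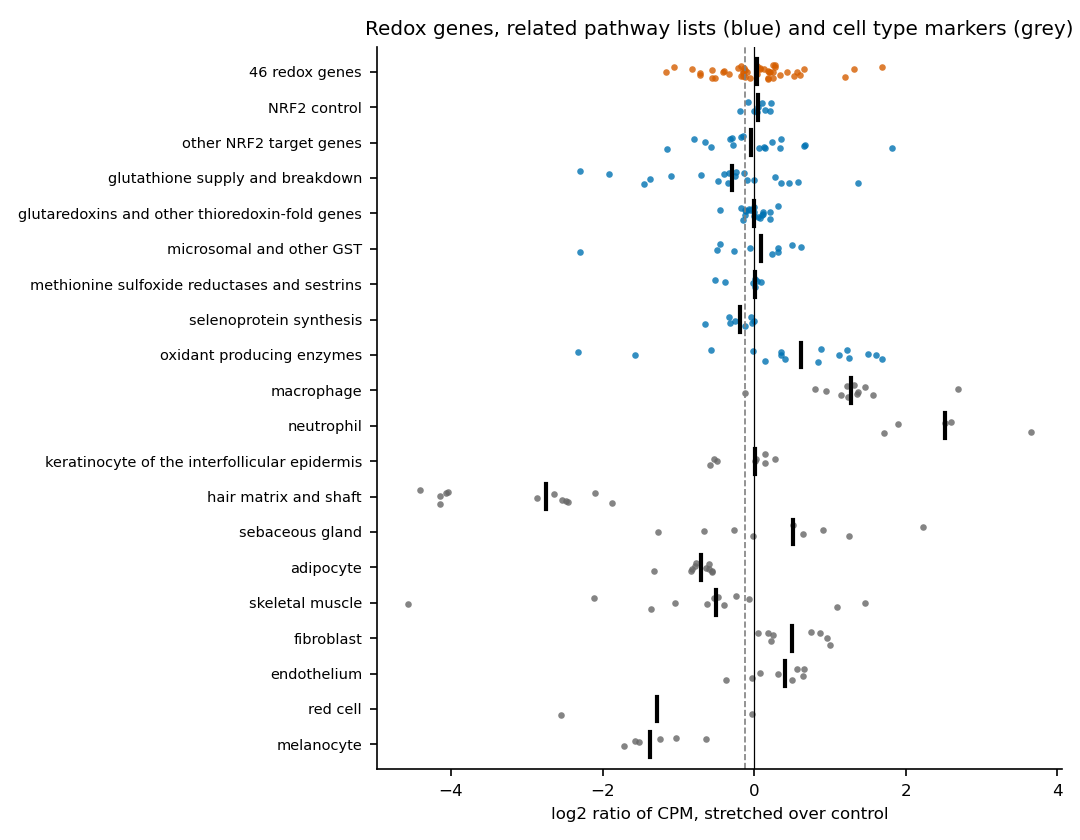
Log2 ratio of CPM, stretched over control skin, of the 46 redox genes (orange), the genes of related pathway lists (blue) and cell type markers (grey), 1 point per gene above 3 counts and a bar at each median. The dashed line is the median of all genes. The redox genes centre near 0. Most oxidant producing enzymes (range -2.33 to 1.68) and most macrophage genes lie to the right, and the hair shaft, adipocyte and melanocyte genes to the left.

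Marker genes of several cell types differed between the same libraries. Hair matrix and shaft markers were lower in 12 of 12 genes, from a summed 6152 to 835 CPM, adipocyte markers in 10 of 10, from 3237 to 2061 CPM, and melanocyte markers in 6 of 6, from 419 to 181 CPM. Skeletal muscle markers had 10 intervals below 0 and 2 above, with sums of 35154 and 24570 CPM. Epidermal keratinocyte markers, which identify the tissue as skin, had 4 above and 3 below of 8 measured, with sums of 15488 and 16178 CPM. Neutrophil markers were higher in the 5 measured genes, from 14.4 to 70.2 CPM, with Mpo and Elane at 3 counts or fewer. One of the 5, Retnlg, had 1 and 31 counts and was measured only through the stretched library, where it could only be higher. Sebaceous markers had 5 above and 3 below of 9, with sums of 345 and 394 CPM, and endothelial markers 4 above and 1 below of 8, with sums of 252 and 327 CPM. The part of hair, fat, muscle and melanocyte content in the lower levels of Gclc, Gclm, Txnrd1, Gpx2, Gstz1 and Sod2, and of the glutathione supply and breakdown genes, was not tested. The methods describe hair in telogen, while hair matrix and shaft markers summed to 6152 CPM in the control library. The hair cycle phase of each piece was not tested. With 1 library per condition, stretch, hair cycle phase, position on the back and differences between animals cannot be told apart.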

How the data were processed

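The authors filtered the reads with the FASTX-Toolkit, aligned them to mm10 with TopHat2 and deposited raw counts per gene symbol. Their own FPKM from Cufflinks was not used here. The counting program, its annotation and its handling of strand and shared reads are not given in the sources used here. From the deposited counts, CPM and FPKM were computed with the total of each library and the union of exons in GENCODE M21 (23384 symbols matched by name, 684 by a synonym, 353 without a length). Values of 3 counts or fewer were set to 3 for a ratio. The floor of 3 counts is 0.212 CPM for the control and 0.258 CPM for the stretched library. The call rule is that of the methods. They state no pseudocount, and 1 was added to each FPKM. With 1 library per condition no test was possible. Intervals and calls were checked on simulated data. Overlaps and shared 76-base stretches came from GENCODE M21 transcripts on either strand.

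All 46 genes are named. Full values were given for up to 4 genes of a role with at least 50 counts and an interval that leaves out 0, and for 8 fixed genes, and for listed pathway genes past 2-fold. The members and lists were chosen with earlier results of these data known. Other scalings came from edgeR 4.0.16 (TMM and upper quartile), from DESeq2 1.42.0 (median of ratios) and from totals that leave out the top 50 genes. Further alternatives were other pseudocounts, filters, lengths and intervals. Python 3.11.15, numpy 2.4.6, pandas 2.3.3, scipy 1.17.1, matplotlib 3.10.9 and R 4.3.3 were used. Genes of the lists that were not in the table (Flg, Ly6g, Epb42 and Trim16l) were not analysed here. The values of 1 listed pathway gene are not reported here.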

Additional observations from a re-analysis of the deposited data

How the results depend on the processing

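Gpx3 and Sod3 were called higher under all 10 alternatives, and Gsta4 under all but EV above 100, which left 2 genes. The number called lower was 0 except with a pseudocount of 0, a pseudocount of 0.1 or CPM in place of FPKM, where it was 1, Gclc in each case. The number of intervals below 0 fell from 14 to 8 in 4 cases (TMM, median of ratios, the upper quartile, and intervals set against the median of all genes), since each moves every gene by one amount, and the share over all genes fell with it, from 33.5% to 24.1%, 23.4%, 24.2% and 22.7%. The intervals above 0 numbered 13 to 20. The median of the 46 genes ranged from -0.01, when the 8 genes with 10% or more shared stretches were dropped, to 0.15 with median of ratios. Of 46 single genes, 2 changed sign under a scaling, Gss and Prdx1, and of 13 families and roles 2 did, the peroxiredoxins and the superoxide dismutases with catalase. The length of the longest transcript was chosen after seeing the data. No paired analysis was possible because each condition has 1 library. For the same reason none could be omitted. Depth limits Gsto2, Gsta2, Gstm6 and Gstm7 most, which had the widest intervals of the 46.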

Other observations

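Besides the 7 redox members with an annotated selenocysteine, 16 other genes in the table carry one in GENCODE M21, and 15 were above 3 counts. They were looked up after the data were seen. Of these, 5 had an interval above 0 (33.3%, against 18.1% of all genes) and 5 below (33.3%, against 33.5%), with a median log2 ratio of 0.08. Sepp1, which encodes the plasma selenium carrier, had 8276 counts in the control library and 12025 in the stretched one (585 and 1032 CPM, log2 ratio 0.82, 0.78 to 0.86). It was, with Gpx3, a secreted selenoprotein at a higher level in stretched skin. Sepn1 had 800 and 918 counts (0.48, 0.34 to 0.62) and Selm had 399 and 440 (0.42, 0.22 to 0.62). Sephs2, which makes the selenium donor and is itself a selenoprotein, had 551 and 289 counts (-0.65, -0.86 to -0.44), and Dio3 had 23 and 7 (-1.44, -2.90 to -0.17). The ratios of the 7 redox members ran from -1.16 to 1.31.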
